A study of Arabidopsis thaliana with 12 samples.

Results

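Arabidopsis thaliana pot1b mutant seedlings and wild-type (WT, Col-0) seedlings were compared after both had been exposed to Zeocin. The comparison rests on 6 of the 12 libraries of the study, chosen by their labels as pot1b with Zeocin (3 libraries) and WT with Zeocin (3 libraries), and covers 19394 nuclear genes with enough counts out of 32548 nuclear genes listed. Seedlings were 6 days old, grown on MS medium, and the drug was given at 20 µM for 6 h. The remaining 6 libraries, 3 of each genotype with a mock treatment, were used for the spread between replicates and for the same genotype difference without the drug. The labels do not name the pot1b allele or say whether it is 1 line, and they do not say whether replicates came from separate cultures. The p-values therefore reflect no more than how far these libraries spread, and that spread may be technical. The title of the study names the question, which is how POT1b bears on genome protection and reactive oxygen species (ROS).

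POT1 proteins bind the single-stranded end of telomeres in many eukaryotes. Arabidopsis carries diverged copies, of which POT1a is an accessory subunit of telomerase. Zeocin belongs to the bleomycin family of drugs, which cleave DNA strands. In plants the resulting breaks are signalled through the kinases ATM and ATR to SOG1, a NAC transcription factor that switches on repair genes and inhibitors of the cell cycle.

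Whole seedlings were sequenced as ribosome-depleted total RNA, so a level is an average over all tissues. Fewer cells of a type and less RNA per cell cannot be told apart in such samples. The 6 Zeocin libraries held 11121224 to 18436247 counts, with 53.01% to 58.45% on chloroplast genes and 4719376 to 7596975 counts on nuclear genes. Levels are given as CPM, which is counts put on a common library size with TMM scaling, and replicate values are listed in the order 1, 2 and 3. A difference is the log2 of pot1b over WT. Its standard error (SE) was worked back from the test, as the absolute difference over the square root of the F statistic. Calls were made at adjusted p under 0.05 with edgeR's quasi-likelihood test with Benjamini-Hochberg adjustment over all tested features. The kit marks strand, but the strand setting of the counting is not given in the sources used here, so genes that overlap another gene are uncertain.

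1 library stood apart before any gene was compared. WT Zeocin replicate 1 differed from its replicates by a chi-square of 9.44 and 11.72 per degree of freedom, against 1.76 to 4.93 for the other pairs within groups. It lay at -47.14 on the first principal component of the 6 libraries, where the other WT libraries were at -8.75 and 1.2 and the pot1b libraries between 8.38 and 31.29. It also had the lowest chloroplast share. Without it, 2286 genes were called in place of the 2160 described below, and counts of list members that then moved are given with their lists or after the last of them.

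The targeted gene was the second point to check. POT1B (AT5G06310) had 3.22, 3.37 and 5.35 CPM in the WT Zeocin libraries and 1.66, 0.7 and 4.21 CPM in the pot1b Zeocin libraries. The library labelled pot1b Zeocin replicate 3 was inside the WT range, and the other pot1b libraries were below every WT library. The mean difference was -1.79 CPM, with p = 0.3 in an exact two-sided permutation test whose smallest possible p is 0.1. On the log2 scale it was -0.85 (SE 0.49, edgeR adjusted p = 0.34). Without the library labelled pot1b Zeocin replicate 3 the log2 difference was -1.71 and passed the test (edgeR adjusted p = 0.013). With mock treatment POT1B had 3.13, 2.95 and 3.23 CPM in WT and 1.43, 1.09 and 2.82 CPM in pot1b. All pot1b mock libraries were below every WT mock library, but the one labelled replicate 3 came near them. A fit without both pot1b libraries of replicate 3 is given in the last section. POT1B overlaps a neighbouring gene, so which transcript these reads came from was not tested. Every direction below is that of the libraries labelled pot1b, and counts that moved without the library labelled pot1b Zeocin replicate 3 are given in the same way. Its paralogue POT1A was at 4.48 ± 0.718 CPM in WT and 4.49 ± 0.466 CPM in pot1b (SD, n = 3 each), a difference of -0.00 (edgeR adjusted p = 1.0).

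Under Zeocin, 2160 nuclear genes differed between the genotypes, which is 11.1% of those tested. Of these, 1277 were higher in pot1b (6.58% of tested genes) and 883 were lower (4.55%). The differences were small: the median absolute log2 difference of called genes was 0.48, the 90th percentile was 0.99, and over all tested genes the median difference was 0.01. At least 2-fold differences were called for 188 genes higher in pot1b (0.969%) and 24 lower (0.124%). Called genes made up between 10.6% and 11.5% of the tested genes of each of the 5 chromosomes. All 3 pot1b libraries lay above all 3 WT libraries for 2717 tested genes (14.0%) and below them for 2343 (12.1%). Of the 2160 called genes, 2104 were apart in this way in the direction of their call. Genes named below for the size of their difference had to be apart, so their separation adds no support to the call. For called list members it adds little, because nearly all called genes were apart. Leaving out pot1b Zeocin replicate 1 brought the called genes to 1233, with 817 higher and 416 lower. Leaving out pot1b Zeocin replicate 2 left 544 called lower. Without the library labelled pot1b Zeocin replicate 3, 1550 genes were called, 1002 higher and 548 lower. A fit to the 6 Zeocin libraries alone called 642 higher and 283 lower, a share higher of 69.4% against 59.1%, and between that fit and the one with all libraries 0 shared calls had opposite directions.

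**Figure D1:**
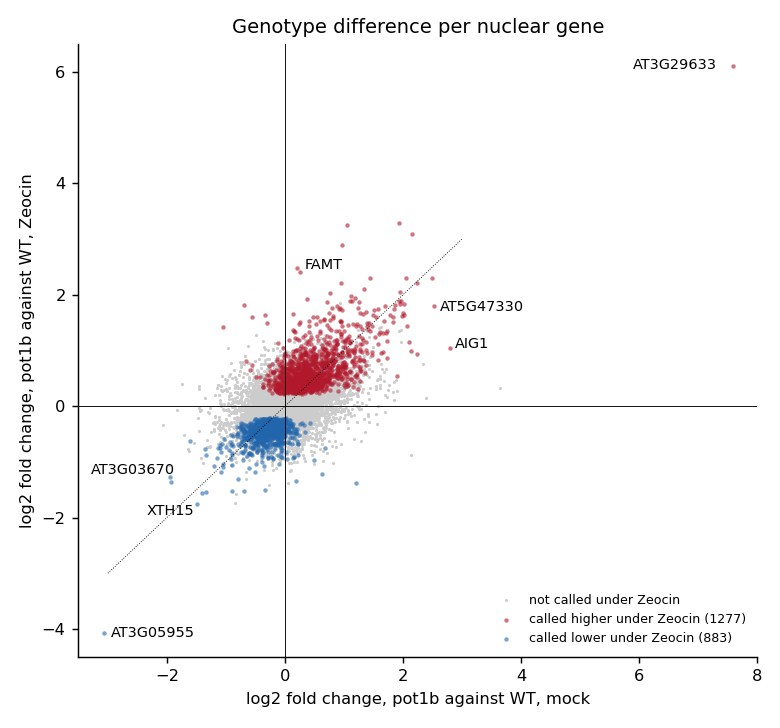
Genotype difference of each tested nuclear gene (log2 of pot1b over WT), with mock treatment on the horizontal axis and with Zeocin on the vertical axis; the dotted diagonal marks equal values. Red and blue points are the 1277 genes called higher and the 883 called lower in pot1b under Zeocin; FAMT is high under Zeocin with a mock difference of 0.26.

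The gene with the largest rise among those named, FAMT (AT3G44860), encodes farnesoic acid carboxyl-O-methyltransferase, which makes a methyl ester of a terpenoid acid. It had 1.92, 3.43 and 3.32 CPM in WT Zeocin and 14.6, 15.1 and 17.3 CPM in pot1b Zeocin. The pot1b libraries lay well clear of the WT libraries, and the difference was 2.42 (SE 0.17, edgeR adjusted p = 3.2e-09). With mock treatment the same gene was at 3.92 CPM in WT and 4.63 CPM in pot1b, a difference of 0.26 (adjusted p = 0.41). RNS1, a secreted ribonuclease known for its response to phosphate starvation and wounding, had 3.63, 4.72 and 5.35 CPM in WT Zeocin and 18.1, 21.1 and 24.7 CPM in pot1b Zeocin. These groups were far apart as well (difference 2.21, SE 0.14, adjusted p = 1.4e-09), and the mock difference was 2.23.

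Among the other genes of largest rise, COR15A, which encodes a cold-induced chloroplast protein, GSTU6, a tau-class glutathione S-transferase, and PAP7, a purple acid phosphatase, were higher in pot1b by 1.75, 1.77 and 1.75. Without symbols were AT5G46890, annotated as a lipid-transfer family protein (2.29), AT5G38020, a methyltransferase (2.1), and AT1G10585 and AT4G20970, both annotated as bHLH DNA-binding proteins (1.97 and 1.88). AT5G62360, an inhibitor-type protein of the invertase and pectin methylesterase family, went from 19.6, 12.3 and 14.1 CPM in WT to 65.1, 55.8 and 53.9 CPM in pot1b. Its groups did not overlap and the difference was 1.93 (SE 0.16, edgeR adjusted p = 5.4e-06). AT5G47330, an alpha/beta-hydrolase, and AT5G26270, which is uncharacterised, were both higher by 1.79. GSTU6, AT1G10585 and AT5G26270 overlap another gene.

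The largest fall was that of XTH15 (AT4G14130), an enzyme that cuts and rejoins xyloglucan in the cell wall. It had 20.7, 24.6 and 25.5 CPM in WT Zeocin and 7.14, 7.53 and 6.39 CPM in pot1b Zeocin. No pot1b library came near the WT range (difference -1.75, SE 0.11, edgeR adjusted p = 5.8e-10). AT4G14120 overlaps XTH15 and had a difference of -1.56, so the pair cannot be told apart. XTH33, of the same enzyme family, differed by -1.53, the peroxidase AT3G03670 by -1.37, GSTF3, a phi-class glutathione S-transferase, by -1.10, and AT5G02540, a Rossmann-fold protein, by -1.08. The cupin-family gene AT3G05950 differed by -1.54, AT2G28780 by -1.30 and AT5G12900 by -1.05. HIPP27, a metal-binding isoprenylated protein, differed by -1.05, AT3G62570 by -1.09 and AT5G11550 by -1.05. Those last 3 lost their calls when a single library was left out, with adjusted p of 0.073 for HIPP27, 0.053 to 0.096 for AT3G62570 and 0.058 to 0.2 for AT5G11550.

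A pair of genes with larger differences were below the level set for naming and were picked after their values were seen. AT3G29633 had 2.01, 2.19 and 1.43 CPM in pot1b Zeocin, against 0, 0 and 0.0535 CPM in WT Zeocin. In the mock libraries it had 1.13, 1.87 and 1.59 CPM in pot1b and 0 in every WT library, so its reads came almost wholly from pot1b seedlings. AT3G05955, a long non-coding RNA, had 1.03, 1.01 and 0.91 CPM in WT Zeocin and 0.0693, 0.0875 and 0 CPM in pot1b Zeocin. It was also lower in pot1b than in WT under mock treatment (edgeR adjusted p for Zeocin = 1.1e-04, groups apart).

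By CPM, the largest gains in pot1b were in abundant transcripts. LHCB1.1, which encodes a light-harvesting chlorophyll protein, went from 1136, 1376 and 1430 CPM in WT to 1923, 1857 and 1838 CPM in pot1b (difference 0.51, edgeR adjusted p = 0.00029). PYK10, a beta-glucosidase of root endoplasmic reticulum bodies, went from 378, 365 and 354 CPM to 654, 683 and 612 CPM (0.83, adjusted p = 9.4e-08). For both genes every pot1b library was above every WT library, which the rule for naming required. LHCB1.1 has near-identical copies and PYK10 overlaps another gene. AT1G59870, the ABC transporter PEN3, rose from 1219 ± 53.8 to 1486 ± 37.9 CPM (0.29), and lost its call without pot1b Zeocin replicate 1 (edgeR adjusted p = 0.051). The dehydrin gene ERD14 rose from 545 ± 78.8 to 784 ± 72 CPM (0.52, adjusted p = 0.0014). The fifth, TSO2, belongs to the DNA damage genes below. The largest losses by CPM were DIN10, DIN6, BXL1, CAT3 and SEN1. BXL1, a beta-xylosidase of the cell wall, had 518, 486 and 497 CPM in WT and 286, 277 and 307 CPM in pot1b, a clear separation (-0.79, SE 0.07, adjusted p = 1.7e-07). Lists are described next by their members called, which can be read against the 6.58% of all tested genes called higher and the 4.55% called lower. Under mock treatment these shares were 7.30% and 5.80%.

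**Figure D2:**
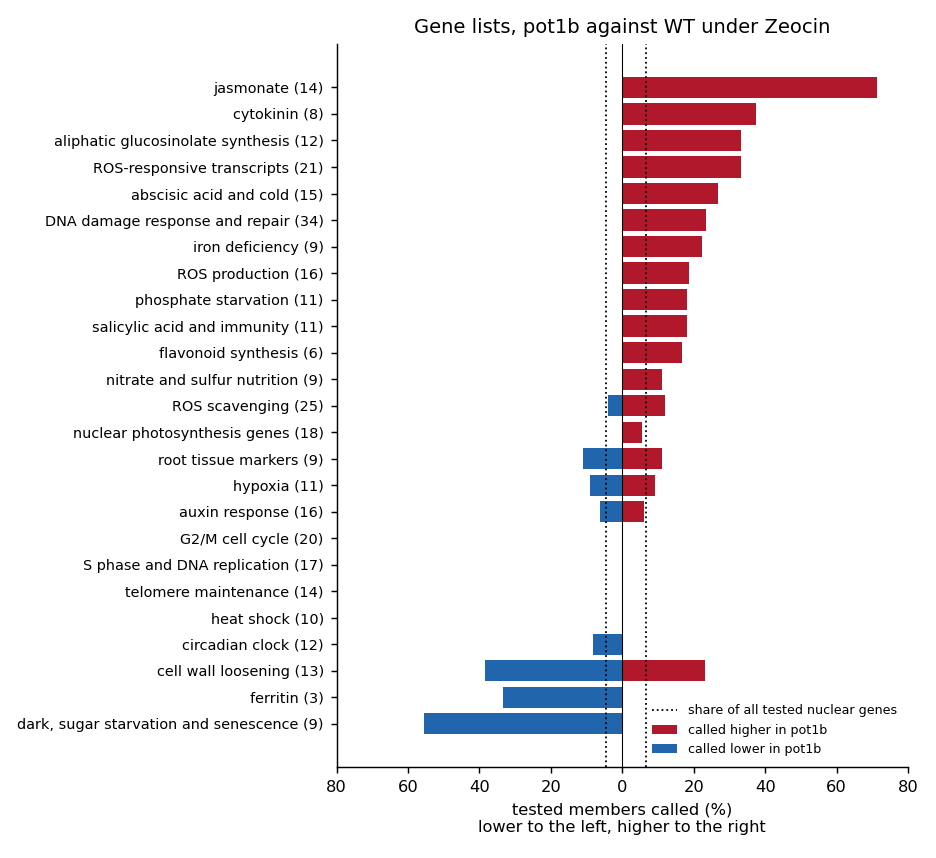
Share of tested members called higher (red, to the right) or lower (blue, to the left) in pot1b under Zeocin for each gene list, with the number of tested members in brackets; dotted lines mark 6.58% and 4.55%, the shares of all tested nuclear genes. Jasmonate has the longest bar to the right (71.4%) and the dark, sugar starvation and senescence list the longest to the left (55.6%).

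Some genes of the DNA damage response were higher in pot1b. Of 34 tested members, 8 were called higher (23.5%) and 0 lower, and the median difference was 0.20. The count was 9 without WT Zeocin replicate 1 (with 1 lower), 6 without WT Zeocin replicate 2, 5 without pot1b Zeocin replicate 1, 6 without the library labelled pot1b Zeocin replicate 3 and 4 in the fit to the 6 Zeocin libraries. The summed level of the list was 1157, 1163 and 1191 CPM in WT Zeocin and 1471, 1486 and 1483 CPM in pot1b Zeocin, with all pot1b libraries above all WT libraries. With mock treatment the same sum was 131 to 138 CPM in WT and 132 to 140 CPM in pot1b. Of the called members, TSO2 had the largest gain by CPM under Zeocin, and it overlaps another gene. Most tested members were not called, so the sum by itself does not show a rise across the list.

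Among cell cycle regulators, SMR7, an inhibitor of cyclin-dependent kinases induced by DNA damage, had 32.4, 37.9 and 48.2 CPM in WT Zeocin. In pot1b Zeocin it had 59.7, 67.1 and 68.5 CPM, all above WT (difference 0.72, SE 0.15, edgeR adjusted p = 0.0087). CYCB1;1, a mitotic cyclin that also acts in repair, had 24, 28.7 and 27.4 CPM in WT and 31.4, 30.2 and 42 CPM in pot1b, where replicate 3 stood above the rest (0.37, adjusted p = 0.042). Its call was lost in 9 of the 12 fits that each left out 1 library (adjusted p 0.053 to 0.29).

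Both called subunits of ribonucleotide reductase, which supplies deoxyribonucleotides for repair, were higher in pot1b. The subunit gene RNR2A, placed in the S phase list, was tested and not called. RNR1, the large subunit, had 47.4, 46.4 and 48.4 CPM in WT and 66, 68.8 and 70.3 CPM in pot1b. The replicates of each group were tightly grouped and well apart (0.53, SE 0.07, edgeR adjusted p = 1.2e-05). In the test of the genotype difference with Zeocin against that without, RNR1 was called positive (0.62, adjusted p = 0.0044) and 1 other DNA damage gene was called negative. This was GMI1, which is induced by gamma rays, with a genotype difference of 1.23 with mock treatment and 0.21 under Zeocin (-1.02, adjusted p = 8.3e-05); it overlaps another gene. TSO2, a small subunit that overlaps another gene, had 339, 368 and 385 CPM in WT and 500, 527 and 476 CPM in pot1b, again apart (0.46, adjusted p = 0.00062).

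Of the repair genes, COM1, which acts in resection of DNA ends, had 15.4, 13.6 and 12.1 CPM in WT and 19.8, 19.7 and 20.4 CPM in pot1b, without overlap (0.55, edgeR adjusted p = 0.0038). PARP2, a poly(ADP-ribose) polymerase activated by breaks, had 108, 87.8 and 85.9 CPM in WT and 123, 122 and 115 CPM in pot1b (0.36, adjusted p = 0.0071). WT Zeocin replicate 1 was the highest WT library for PARP2. XRI1, named for its induction by X-rays, and SYN2, a cohesin subunit, were higher by 0.33 and 0.27. XRI1 lost its call without pot1b Zeocin replicate 1 or without the library labelled replicate 3 (edgeR adjusted p 0.061 and 0.08). SYN2 lost it without any of 3 libraries (adjusted p 0.076 to 0.087).

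The other 26 tested members did not pass the test. BRCA1 had 85.9 ± 4 CPM in WT and 98.7 ± 2.98 CPM in pot1b (0.20, edgeR adjusted p = 0.063). SOG1 itself differed by 0.08 (adjusted p = 0.8) and ATM by -0.23 (adjusted p = 0.17). The Zeocin effect in each genotype shares libraries with the present comparison, so its values are only set beside it. For SMR7 that effect was 7.36 in WT and 8.35 in pot1b, for TSO2 6.31 and 6.53, for PARP2 5.92 and 5.99, and for RNR1 1.97 and 2.59. For GMI1 it went the other way, at 3.51 and 2.50. Of these genes only RNR1 and GMI1 were called in the test of the genotype difference with Zeocin against that without.

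**Figure D3:**
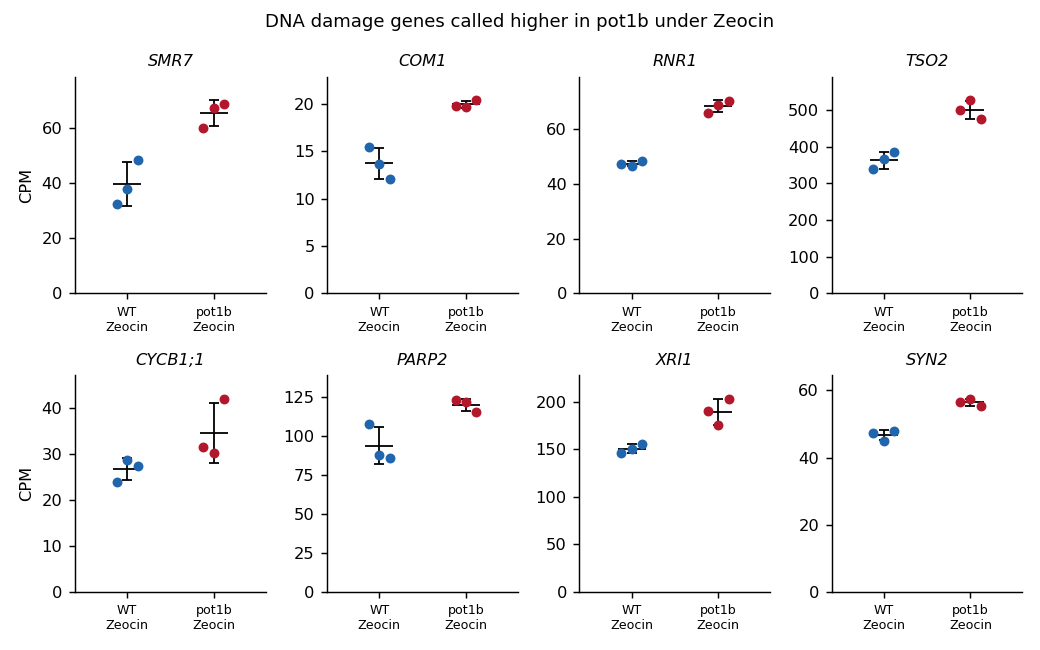
CPM of the 8 DNA damage genes called higher in pot1b, in the 3 WT Zeocin (blue) and 3 pot1b Zeocin (red) libraries; bars show the mean and SD, and each vertical axis starts at 0. Every red point lies above every blue point, with the smallest gap for CYCB1;1, where the lowest pot1b library had 30.2 CPM and the highest WT library 28.7 CPM.

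The promoters of 3 called DNA damage genes are shown because they hold the palindrome recognised by SOG1, which is CTT and AAG separated by 7 bases of any kind. The capitals mark that motif in the 250 bases before the annotated start, 5′ to 3′ in the direction of the gene, from RefSeq (TAIR10.1; the deposited tables hold no coordinates). SMR7 is at chr3:10231568-10231817 on the minus strand, PARP2 at chr4:1049516-1049765 on the plus strand and COM1 at chr3:19325785-19326034 on the plus strand.
SMR7: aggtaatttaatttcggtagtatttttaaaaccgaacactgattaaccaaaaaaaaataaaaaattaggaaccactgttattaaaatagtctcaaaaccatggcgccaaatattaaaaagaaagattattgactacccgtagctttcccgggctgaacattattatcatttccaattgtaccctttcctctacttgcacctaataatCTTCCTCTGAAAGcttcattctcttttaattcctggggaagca
PARP2: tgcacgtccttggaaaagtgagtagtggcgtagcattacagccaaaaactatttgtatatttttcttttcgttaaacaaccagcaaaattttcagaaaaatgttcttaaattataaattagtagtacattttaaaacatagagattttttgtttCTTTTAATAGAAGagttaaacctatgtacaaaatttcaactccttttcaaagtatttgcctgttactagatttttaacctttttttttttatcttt
COM1: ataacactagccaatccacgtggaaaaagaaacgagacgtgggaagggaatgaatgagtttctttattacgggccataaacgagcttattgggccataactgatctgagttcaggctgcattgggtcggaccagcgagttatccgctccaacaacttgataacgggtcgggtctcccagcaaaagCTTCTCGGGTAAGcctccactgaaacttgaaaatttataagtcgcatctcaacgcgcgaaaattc

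The motif begins 43 bases before the start in SMR7, 96 in PARP2 and 65 in COM1. It is in the 250-base promoters of 9 of the 34 tested DNA damage genes (26.47%), of 8.46% of the genes called higher in pot1b, of 9.51% of those called lower and of 8.96% of all tested genes. A W-box, the WRKY factor motif TTGACC or TTGACT searched on both strands, is in 35.47% of promoters of genes called higher, 25.14% of those called lower and 28.33% of all. The G-box CACGTG is in 9.71%, 7.47% and 7.14% in the same order, and the telo-box AAACCCTAA in 0.55%, 1.02% and 2.04%. The evening element AAAATATCT is in 3.92%, 2.6% and 2.4%. These shares describe letters in a window and carry no test.

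Telomere maintenance genes had 0 of 14 tested members called in either direction, with a median difference of -0.01. One of them had an unadjusted p under 0.05, and DESeq2 and limma-voom also called 0. TERT, the catalytic subunit of telomerase, was at 0.973 ± 0.371 CPM in WT and 0.985 ± 0.176 CPM in pot1b, and STN1, of the telomere-capping complex, at 6.19 ± 0.83 and 5.11 ± 0.129 CPM (-0.27, edgeR adjusted p = 0.34). Without the library labelled pot1b Zeocin replicate 3, 1 member was called lower, which was POT1B itself. With pot1b Zeocin replicate 2 left out, 1 member was called higher. Genes of G2/M had 0 of 20 called (3 with unadjusted p under 0.05, and 0 by DESeq2 or limma-voom) and genes of S phase and replication 0 of 17 (2 with unadjusted p under 0.05, and 0 by the other tools). Without the library labelled pot1b Zeocin replicate 3, 1 S phase gene was called lower. Of the G2/M genes, 1 was called higher without WT Zeocin replicate 2 and 1 lower without WT Zeocin replicate 3. The medians were -0.13 and 0.03, and the mitotic kinase CDKB1;1 differed by -0.17 (adjusted p = 0.8) and the helicase subunit MCM2 by 0.11 (adjusted p = 0.71). Over all tested genes 11.1% were called, so counts of 0 in lists of this size say little about their genes.

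Jasmonate, an oxylipin hormone of wounding and defence, gave the largest share of calls of any list. Of 14 tested members, 10 were called higher in pot1b (71.4%) and 0 lower, the median difference was 0.68, and all 14 had a positive difference. The count was 12 without WT Zeocin replicate 1 and 10 without the library labelled pot1b Zeocin replicate 3. The summed level was 289, 270 and 265 CPM in WT Zeocin and 461, 519 and 484 CPM in pot1b Zeocin, with no overlap. The same sum was 268 to 274 CPM in WT mock and 414 to 427 CPM in pot1b mock, where 11 members were called higher. For a difference between the treatments 0 of 14 members were called. That test called 0.366% of all tested genes as positive and 0.376% as negative, so 0 of 14 says little.

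Along the pathway, the lipoxygenases that oxygenate linolenic acid come first. LOX3 had 10.7, 10 and 7.71 CPM in WT and 21.9, 20.9 and 18.18 CPM in pot1b, and LOX2 and LOX4 were higher by 0.65 and 0.60. The LOX3 groups were clearly apart (1.11, SE 0.12, edgeR adjusted p = 9.7e-07), and LOX4 lost its call without any of 3 libraries (adjusted p 0.055 to 0.063). AOS, allene oxide synthase, had 51.6, 47.3 and 45.1 CPM in WT and 96.2, 111 and 90.8 CPM in pot1b, where every library was above WT (1.05, adjusted p = 2.5e-08).

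The next enzyme, allene oxide cyclase, is encoded by a small family. AOC2 had 46.6, 43.5 and 44 CPM in WT and 99.1, 110 and 120 CPM in pot1b, so the groups were far apart (1.29, SE 0.08, edgeR adjusted p = 5.8e-10). AOC1 and AOC3 were higher by 1.04 and 1.43. These 3 genes lie side by side and are similar in sequence, so the split of reads among them is uncertain. OPR3, which reduces the cyclic precursor, was at 18.17 ± 1.69 CPM in WT and 25.4 ± 1.1 CPM in pot1b (0.48, adjusted p = 0.0013), with a mock difference of 0.05. Of the JAZ repressors, which are themselves induced by jasmonate, JAZ1 was higher by 0.52 and JAZ10, which overlaps another gene, by 0.72. MYC2, the transcription factor they repress, was at 28.1 ± 4.31 and 32.2 ± 3.82 CPM (0.20, adjusted p = 0.3), and the storage protein gene VSP1 differed by 0.98 (adjusted p = 0.053).

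Genes of abscisic acid and cold had 4 of 15 tested members called higher (26.7%), 0 lower and a median difference of 0.36. COR15A had 1.51, 1.35 and 1.23 CPM in WT and 4.43, 4.46 and 4.81 CPM in pot1b, tight within groups and apart between them (1.75, SE 0.18, edgeR adjusted p = 6.2e-07). KIN1, a cold- and drought-induced protein, had 4.52, 4.78 and 3.21 CPM in WT and 12.8, 13.4 and 10.3 CPM in pot1b (1.55, adjusted p = 3.2e-07). RD29A, a standard reporter of cold and drought signalling, had 104, 89.6 and 69.3 CPM in WT and 182.9, 181 and 153 CPM in pot1b, without overlap (0.98, adjusted p = 1.6e-05). COR15B was higher by 1.2; COR15A and COR15B are close copies. WT Zeocin replicate 1 was high for the dehydrins COR47 (630 CPM against 322 and 269 in the other WT libraries) and ERD10 (109 against 62 and 48.2), which were not called. The summed level was 960, 587 and 494 CPM in WT and 1115, 1057 and 866 CPM in pot1b, so that this WT library lay within the pot1b range. Without it 6 members were called, and 6 without the library labelled pot1b Zeocin replicate 3. In the mock comparison 5 members were called higher and 0 lower, with a median of 0.32.

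**Figure D4:**
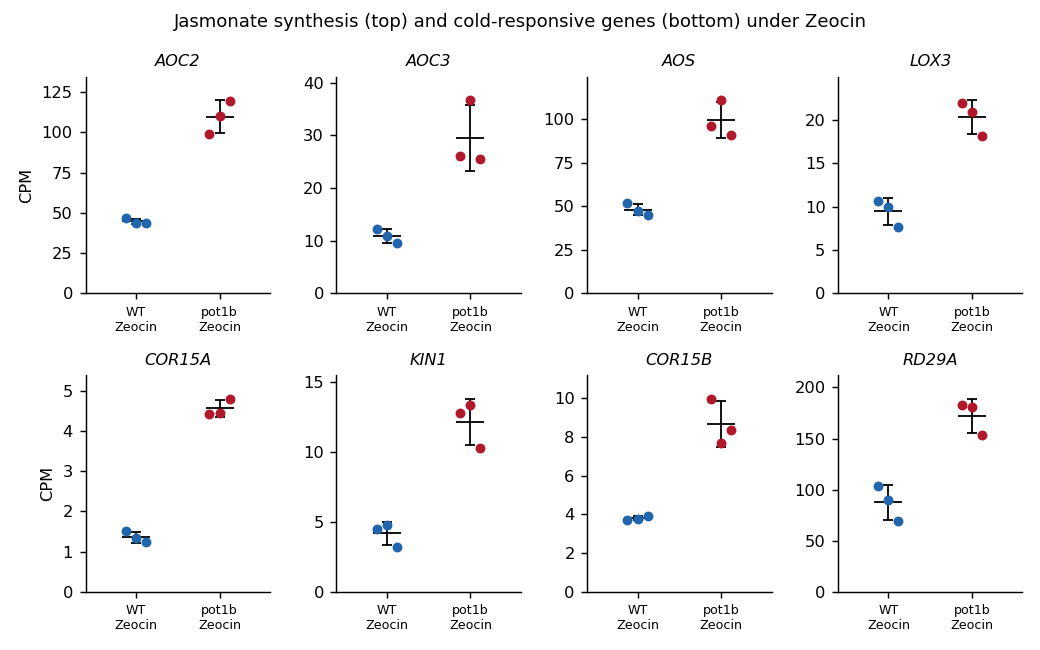
CPM of 4 jasmonate synthesis genes (top) and 4 cold-responsive genes (bottom) in the 3 WT Zeocin (blue) and 3 pot1b Zeocin (red) libraries; bars show the mean and SD, and each vertical axis starts at 0. In all 8 panels the red points lie above the blue points; AOC2 is at 99.1 to 120 CPM in pot1b and 43.5 to 46.6 CPM in WT.

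The promoters of COR15A and RD29A are shown for the CRT/DRE core CCGAC, the site of CBF/DREB factors, and that of FAMT for its W-boxes. The core was added to the motifs after values were seen. It is in the promoters of 3 of the 15 tested cold and abscisic acid genes (20%) and of 2 of the 4 called ones, and KIN1 and COR15B have none in this window. It is in 13.07% of all tested promoters, 13.94% of those of genes called higher and 10.53% of those called lower. COR15A is at chr2:17712331-17712580 on the minus strand, RD29A at chr5:21240467-21240716 on the plus strand and FAMT at chr3:16379321-16379570 on the plus strand (RefSeq, TAIR10.1). Capitals mark the core, or the W-box in FAMT, on either strand.
COR15A: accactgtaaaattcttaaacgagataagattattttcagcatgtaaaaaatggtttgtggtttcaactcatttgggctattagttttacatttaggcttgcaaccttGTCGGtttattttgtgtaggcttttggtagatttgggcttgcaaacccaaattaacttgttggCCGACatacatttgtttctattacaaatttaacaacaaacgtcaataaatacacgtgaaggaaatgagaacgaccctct
RD29A: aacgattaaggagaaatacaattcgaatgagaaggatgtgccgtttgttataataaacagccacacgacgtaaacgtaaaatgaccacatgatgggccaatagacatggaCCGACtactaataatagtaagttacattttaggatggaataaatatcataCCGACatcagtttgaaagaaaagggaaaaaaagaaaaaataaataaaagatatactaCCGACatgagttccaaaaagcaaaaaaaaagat
FAMT: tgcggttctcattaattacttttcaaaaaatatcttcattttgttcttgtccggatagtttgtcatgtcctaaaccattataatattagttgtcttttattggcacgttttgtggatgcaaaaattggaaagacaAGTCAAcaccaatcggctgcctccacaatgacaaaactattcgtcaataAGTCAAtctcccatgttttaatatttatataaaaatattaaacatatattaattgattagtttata

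ROS genes were described in 3 lists, because the study's title names them. Of 21 tested ROS-responsive transcripts, 7 were called higher (33.3%) and 0 lower, with a median of 0.23. The count was 7 without WT Zeocin replicate 1 and 8 without the library labelled pot1b Zeocin replicate 3. Mock calls of this list were 8 higher and 0 lower, with a median of 0.41. ZAT12, a zinc-finger protein induced by hydrogen peroxide, had 6.23, 5.06 and 5.99 CPM in WT and 10.3, 9.37 and 8.34 CPM in pot1b, without overlap (0.70, SE 0.13, edgeR adjusted p = 0.00081). AOX1A, the alternative oxidase of mitochondria, was at 16.8 ± 1.94 and 22.5 ± 0.359 CPM (0.42, adjusted p = 0.0037). The transcription factors WRKY6 and NAC032 were higher by 0.47 and 0.71, and the glutathione S-transferases GSTU1, GSTU24 and GSTU25 by 0.93, 0.95 and 1.31. GSTU24 and GSTU25 are neighbours of similar sequence, and GSTU25 lost its call without pot1b Zeocin replicate 1 (adjusted p = 0.053). The kinase gene OXI1 was at 10.4 ± 0.986 and 12.6 ± 1.85 CPM (0.28, adjusted p = 0.23).

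Of 25 tested scavenging enzymes, 3 were called higher (12%) and 1 lower (4%, near the 4.55% of all genes), and the median was -0.05. CAT3, a catalase, had 626, 659 and 721 CPM in WT and 479, 446 and 478 CPM in pot1b, with all pot1b libraries below WT (-0.52, SE 0.08, edgeR adjusted p = 0.00012). CAT2 and CAT1 differed by -0.20 and -0.23 and did not pass (adjusted p 0.097 and 0.051). GPX6, a glutathione peroxidase that overlaps another gene, had 30.6, 38.3 and 38 CPM in WT and 59.9, 60.3 and 59.1 CPM in pot1b, clearly apart (0.74, adjusted p = 1.5e-06). GPX1 and DHAR1, a dehydroascorbate reductase, were higher by 0.33 and 0.30, and DHAR1 lost its call without pot1b Zeocin replicate 2 (adjusted p = 0.081). Mock calls of the scavenging list were 3 higher and 3 lower, with a median of -0.11.

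Of 16 tested genes of ROS production, 3 were called higher (18.8%) and 0 lower, with a median of 0.19. RBOHD, the main NADPH oxidase of leaves, had 17.5, 16.1 and 16.4 CPM in WT and 19.9, 21.4 and 21.1 CPM in pot1b, a small but complete separation (0.32, edgeR adjusted p = 0.018). RBOHG was higher by 0.62 and the peroxidase PRX4 by 0.47. The count was 4 without WT Zeocin replicate 1, 1 without pot1b Zeocin replicate 2 and 2 without the library labelled pot1b Zeocin replicate 3. RBOHD and RBOHG lost their calls without any of 3 and 4 libraries (adjusted p 0.054 to 0.068 and 0.055 to 0.11). The summed level was 957 to 1062 CPM in WT and 973 to 1017 CPM in pot1b, overlapping ranges. In the mock libraries 4 members were called higher and 0 lower. There the sum was 1116 to 1136 CPM in WT and 1414 to 1497 CPM in pot1b, without overlap. The scavenging sum was 1711 to 1944 CPM in WT Zeocin and 1635 to 1692 CPM in pot1b Zeocin. The ROS-responsive sum was 686 to 738 and 828 to 841 CPM in the same order, and neither of these pairs overlapped. Within the scavenging sum, CAT3 alone went from a mean of 669 CPM in WT Zeocin to 468 CPM in pot1b Zeocin. That sum therefore does not show a fall across the list, whose median was -0.05 with 3 members called higher and 1 lower.

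Salicylic acid and immunity genes had 2 of 11 tested members called higher and 0 lower, with a median of 0.24. These were the partner proteins EDS1 (14.7 ± 0.733 against 18.9 ± 0.424 CPM, 0.37) and SAG101 (34.2 ± 5.73 against 49.1 ± 4.21 CPM, 0.53). With mock treatment 6 members were called higher. PBS3, an enzyme of salicylic acid synthesis, had a difference of 0.32 under Zeocin (edgeR adjusted p = 0.72) and 3.64 under mock treatment, and the difference between these passed the test (-3.33, adjusted p = 0.0046). CBP60G, a regulator of that synthesis, gave 0.26, 1.31 and -1.05 (adjusted p = 0.00036) in the same order. Heat shock genes had 0 of 10 called under Zeocin (3 with unadjusted p under 0.05, and 0 by DESeq2 or limma-voom) and 6 under mock treatment, with medians of 0.18 and 0.78; 1 was called higher under Zeocin without WT Zeocin replicate 1, and 1 without WT Zeocin replicate 3. Among all tested genes 11.1% were called under Zeocin, so 0 of 10 alone says little. HSP70 differed by 0.13 under Zeocin and by 1.42 under mock treatment (difference -1.29, adjusted p = 0.00018).

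Growth-related lists were divided. Of 13 tested genes of cell wall loosening, 3 were called higher (23.1%) and 5 lower (38.5%). Of the 6 xyloglucan enzymes listed, XTH15, XTH9, XTH24 and XTH23 were lower in pot1b (-1.75, -0.60, -0.46 and -0.44), and XTH4 and XTH22 did not pass (-0.23 and -0.11, edgeR adjusted p 0.15 and 0.36). The expansins, which loosen walls without cutting them, were called in both directions: EXPA3, EXPA4 and EXPA10 were higher by 0.55, 0.76 and 0.77, and EXPA8 was lower in pot1b (-0.84). EXPA8 was near the filter, at 1.83 ± 0.134 and 0.992 ± 0.387 CPM, and lost its call without 11 of the 12 libraries in turn (adjusted p 0.052 to 0.2). EXPA10 lost it without the library labelled pot1b Zeocin replicate 3 (adjusted p = 0.055).

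Auxin response genes had 1 of 16 called higher and 1 lower (6.2% each), where 8 were called lower with mock treatment. The median was -0.03 under Zeocin and -0.66 under mock treatment. For a positive difference between treatments 4 of 16 members were called, against 0.366% of all tested genes. IAA5, an Aux/IAA repressor, had 0.684, 0.731 and 0.589 CPM in WT and 1.87, 1.66 and 1.8 CPM in pot1b, low but apart (1.41, SE 0.27, edgeR adjusted p = 0.0014). It overlaps another gene. GH3.5, which conjugates auxin to amino acids, was lower in pot1b (-0.41). Cytokinin genes had 3 of 8 called higher (37.5%) and 0 lower, with a median of 0.46. They were the response regulators ARR4 (0.60) and ARR7 (0.98) and LOG7 (0.55), an activating enzyme that neighbours POT1B on the chromosome. LOG7 had 15.2, 14.1 and 12.1 CPM in WT and 19.5, 22.9 and 18.1 CPM in pot1b (adjusted p = 0.006), and a mock difference of 0.04. The difference between the treatments was not called for LOG7 (0.51, edgeR adjusted p = 0.23). ARR4 and ARR7 were also called higher with mock treatment (0.50 and 0.65). There the cytokinin list had 2 members called higher and 1 lower, with a median of 0.29.

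Transcripts of darkness, sugar starvation and senescence were the list most often lower in pot1b. Of 9 tested members, 5 were called lower (55.6%) and 0 higher, with a median of -0.29. DIN6, an asparagine synthetase, had 1154, 1333 and 1350 CPM in WT and 976, 1009 and 1019 CPM in pot1b, without overlap (-0.35, edgeR adjusted p = 0.004). SEN1 had 727, 594 and 533 CPM in WT and 479, 464 and 422 CPM in pot1b, where WT Zeocin replicate 1 was the highest (-0.44, adjusted p = 0.0037). DRM1, BCAT2, which degrades branched-chain amino acids, and DIN10, of the raffinose synthase family, were lower in pot1b (-0.36, -0.29 and -0.24). The count was 5 without WT Zeocin replicate 1, 3 without pot1b Zeocin replicate 1, 3 without the library labelled replicate 3 and 1 in the fit to the 6 Zeocin libraries. BCAT2 lost its call without either of 2 libraries (adjusted p 0.062 and 0.069) and DIN10 without any of 7 (0.052 to 0.11). DIN6, DIN10 and BCAT2 overlap another gene. In the mock comparison 6 members of the list were called lower and 0 higher, with a median of -0.30.

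Nutrient genes gave a few large differences. IRT1, the iron transporter of the root epidermis, had 0.753, 1.18 and 0.749 CPM in WT and 2.98, 2.1 and 3.53 CPM in pot1b, apart in spite of low levels (1.68, SE 0.24, edgeR adjusted p = 6.4e-05). FRO2, the ferric reductase that works beside it, had 2.94, 1.85 and 2.14 CPM in WT and 6.37, 6.74 and 4.81 CPM in pot1b (1.38, adjusted p = 3.6e-05). They were the 2 of 9 iron deficiency genes called higher (22.2%). FER1, a ferritin that stores iron, had 278, 259 and 272 CPM in WT and 153, 145 and 154 CPM in pot1b, a complete separation (-0.84, SE 0.07, adjusted p = 4.3e-08). It overlaps another gene, and FER3 and FER4 differed by -0.08 and -0.11 (adjusted p 0.74 and 0.58). Under mock treatment all 3 tested ferritin genes were called lower, with a median of -0.45.

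Among other nutrients, the phosphate transporter PHT1;1 was higher by 0.56 and with RNS1 made up 2 of 11 phosphate starvation genes called. The nitrate transporter NRT2.1 was at 2.57 ± 0.569 and 5.56 ± 0.354 CPM (1.13, edgeR adjusted p = 0.00015), the 1 called of 9 nitrate and sulfur genes. Aliphatic glucosinolate synthesis had 4 of 12 called higher (33.3%) and 0 lower, with a median of 0.46. BCAT4, which starts the side-chain elongation of methionine, had 10.5, 12.1 and 9.53 CPM in WT and 21, 18.6 and 17 CPM in pot1b (0.82, adjusted p = 2e-05). IPMDH1, of the same elongation cycle, was higher by 0.74, and CYP79F1 and CYP83A1, which build the core structure, by 1.31 and 0.70. The regulator MYB28 differed by 0.28 (adjusted p = 0.62). BCAT4 and IPMDH1 overlap another gene. Under mock treatment 4 glucosinolate genes were called higher and 1 lower, with a median of 0.39.

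Tissue markers were compared because several of these genes are expressed mainly in roots. Of 9 tested root markers, 1 was called higher (PYK10) and 1 lower, SCR, a regulator of the root endodermis (-0.69, edgeR adjusted p = 0.012). SCR lost its call without WT Zeocin replicate 2 or pot1b Zeocin replicate 1 (adjusted p 0.059 and 0.091). The median of the root list was -0.10. Its summed level was 377 to 405 CPM in WT and 635 to 705 CPM in pot1b, most of it PYK10. Nuclear photosynthesis genes had 1 of 18 called higher (5.6%) with a median of 0.08, summing to 11513, 13347 and 13387 CPM in WT and 13926 to 14379 CPM in pot1b. WT Zeocin replicate 1 was again the lowest. The shoot meristem list had 1 of 5 members tested, which was not called, and 0 of 7 seed storage genes passed the filter. The part of tissue balance in the differences was not tested.

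Single genes were called in the remaining lists. CHS, the first enzyme of flavonoid synthesis, was higher by 0.62 (1 of 6 tested). Of 11 hypoxia genes, SUS1, a sucrose synthase, was higher by 0.34 and the ethylene receptor ETR2 differed by -0.51. The clock gene ELF3 differed by -0.29 (1 of 12). CHS lost its call without WT Zeocin replicate 2 (edgeR adjusted p = 0.073) or without the library labelled pot1b Zeocin replicate 3 (0.059). SUS1 lost it without any of 6 libraries (0.051 to 0.15) and ELF3 without either of 2 (0.057 and 0.076).

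Some counts not yet given moved by a member without either Zeocin library that was doubted. Without WT Zeocin replicate 1, the scavenging list had 2 members lower, cell wall loosening 4 lower, auxin 2 higher, iron deficiency 1 lower, photosynthesis 2 higher, hypoxia 0 higher and the clock 2 lower. Without the library labelled pot1b Zeocin replicate 3, scavenging had 2 lower, cell wall loosening 2 higher and 4 lower, and hypoxia and flavonoid synthesis 0 higher and the clock 0 lower. The counts of the salicylic acid, cytokinin, glucosinolate, phosphate, nitrate and sulfur, ferritin and root lists were equal in all 3 fits.

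The same genotype difference was then read with mock treatment, in libraries not shared with the Zeocin comparison. There 1416 genes were called higher in pot1b (7.30%) and 1124 lower (5.80%). Of the 1277 genes higher under Zeocin, 637 (49.9%) were also higher with mock treatment, which is 45% of the mock list. Of the 883 lower under Zeocin, 400 (45.3%) were also lower, 35.6% of the mock list. Only 7 genes were higher under Zeocin and lower with mock treatment, and 5 the reverse. Across genes, which are not independent, the 2 sets of differences correlated with a Pearson's r of 0.526 and a Spearman's rho of 0.476.

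A call in 1 treatment and not the other does not show that the treatments differ. Of the 1111 genes called under Zeocin only, 633 higher and 478 lower, the mock differences had medians of 0.16 and -0.16, and 43 were called in the test of the difference itself. That test, the interaction, called 71 genes with a more positive genotype difference under Zeocin (0.366%) and 73 with a more negative one (0.376%). The 144 calls became 416 without WT Zeocin replicate 1 and 55 to 83 without each of 8 other libraries (all mock libraries and pot1b Zeocin replicates 1 and 2).

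Among genes also called under Zeocin, FAMT had an interaction of 2.16 (edgeR adjusted p = 0.00012). AT1G14120, a 2-oxoglutarate oxygenase, had 4.45, 4.78 and 3.91 CPM in WT and 8.52, 7.26 and 7.29 CPM in pot1b under Zeocin. With mock treatment WT was higher, at 6 against 3.72 CPM, and the interaction was 1.48 (adjusted p = 0.00085). AT3G09440, an HSP70-family gene that overlaps another gene, had 82.6, 73.3 and 60.8 CPM in WT and 89.7, 94.5 and 82.6 CPM in pot1b under Zeocin, nearly touching. With mock treatment it was at 59.6 and 141 CPM, and the interaction was -0.94 (adjusted p = 0.00036). AT4G12490, a lipid-transfer family gene, went from 3.15 ± 0.664 to 6.33 ± 0.509 CPM under Zeocin and from 3.92 to 17 CPM with mock treatment, an interaction of -1.13 (adjusted p = 0.0076).

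**Figure D5:**
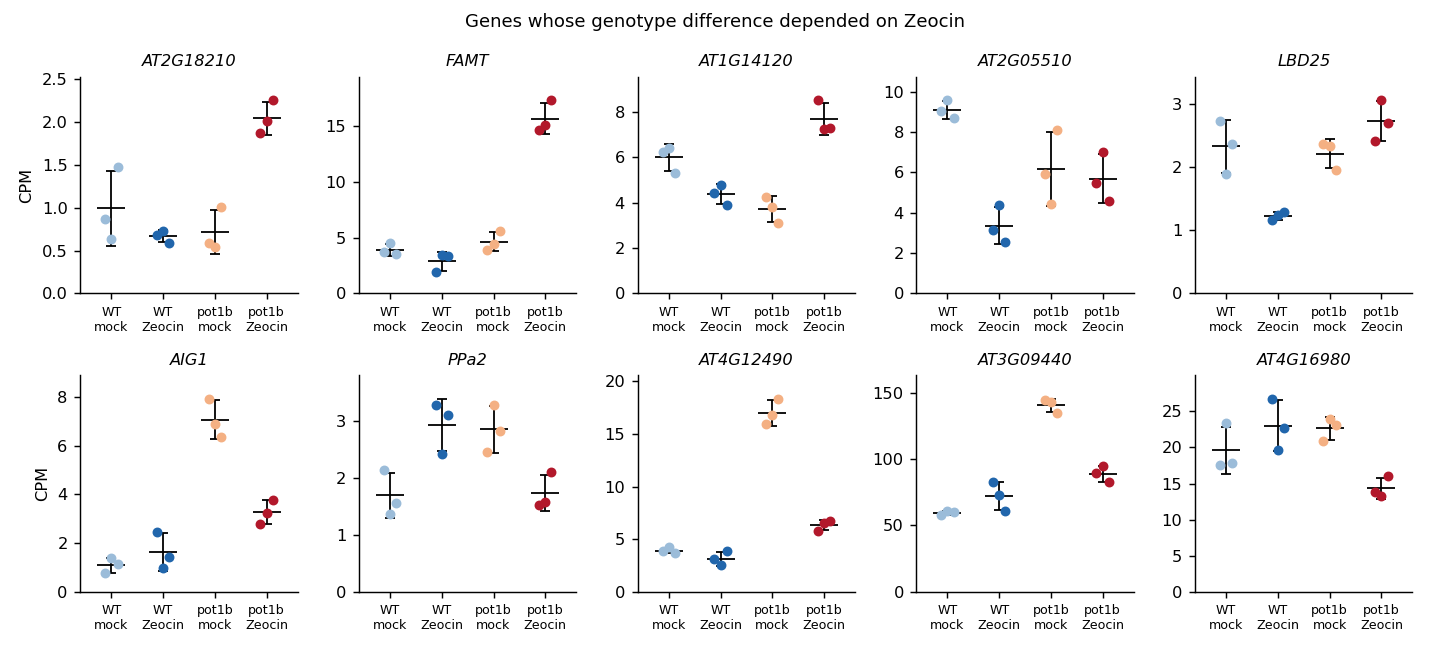
CPM in all 12 libraries for the 10 genes with the largest interaction (5 each way) among genes called under Zeocin with groups apart and a mean of at least 2 CPM in the higher group, positive in the top row and negative in the bottom row; points are libraries, bars the mean and SD, and each vertical axis starts at 0. FAMT is at 14.6 to 17.3 CPM in pot1b Zeocin against 1.92 to 5.57 CPM in the other 9 libraries.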

How the data were processed

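Raw counts per gene were deposited for each of the 12 libraries. Per the labels, libraries came from a stranded total RNA kit with removal of ribosomal RNA. Per the submitters' processing notes, the authors used Trim Galore, HISAT2, featureCounts and limma with TAIR10; versions and the strand setting are not given in the sources used here. The 34262 features were filtered with filterByExpr (minimum count 10), which kept 19596, of which 19394 were nuclear. edgeR 4.0.16 in R 4.3.3 was fitted with TMM scaling and the robust quasi-likelihood F test to 12 libraries in 4 groups, with 8 residual degrees of freedom and a common dispersion of 0.0121. Adjusted p is Benjamini-Hochberg over the 19596 features.

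Named were the 12 largest rises and 12 largest falls, the 5 largest CPM gains and losses and the 5 largest interactions each way, among called nuclear genes whose groups did not overlap and whose higher group averaged at least 2 CPM. POT1B, POT1A and called members of 27 gene lists (401 genes, 344 tested) were named at any level; IAA5, GSTU25 and EXPA8 were below 2 CPM. For lists, further well-known members are given with values. Members and lists were chosen with earlier results of these data known. Alternatives were RLE scaling, DESeq2 1.42.0, limma-voom (limma 3.58.1), no filter, nuclear genes only, overlapping genes left out, a replicate block and libraries left out.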

Additional observations from a re-analysis of the deposited data

Results flagged for a closer look

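For the 10 genes chosen for their interaction (at least 2 CPM and called under Zeocin) the genotype difference under Zeocin differed from that with mock treatment in edgeR's quasi-likelihood test of the interaction (Benjamini-Hochberg adjustment). It was more positive under Zeocin for AT2G18210 (uncharacterised, 2.17, adjusted p = 0.023), FAMT (2.16, 0.00012), AT1G14120 (1.48, 0.00085), AT2G05510, a glycine-rich protein gene (1.30, 0.044), and LBD25, a LOB-domain transcription factor gene (1.25, 0.044). It was more negative for AIG1, a gene induced by avirulent bacteria (-1.76, adjusted p = 0.027), the pyrophosphatase gene PPa2 (-1.42, 0.029), AT4G12490 (-1.13, 0.0076), AT3G09440 (-0.94, 0.00036) and AT4G16980 (-0.90, 0.012).

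The means behind them show different patterns. LBD25 was at 2.33 CPM in WT mock, 2.22 in pot1b mock, 1.23 in WT Zeocin and 2.73 in pot1b Zeocin, so WT Zeocin was the low group. AIG1 was at 1.09, 7.05, 1.62 and 3.25 CPM in the same order, so pot1b mock was the high group. PPa2, at 1.69, 2.85, 2.94 and 1.73 CPM, had opposite differences in the 2 treatments. AT4G16980, annotated as an arabinogalactan protein, was at 19.6, 22.6, 23 and 14.3 CPM, and overlaps another gene, as do PPa2, AT3G09440 and AT4G12490. The Zeocin calls of AIG1, AT2G05510, AT3G09440 and PPa2 did not hold in every fit that left out 1 library (highest adjusted p 0.067, 0.16, 0.15 and 0.14).

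The same test called 17 of the 344 tested list members, whatever their level or their call under Zeocin. Over all 19394 tested nuclear genes it called 144 (0.366% positive and 0.376% negative). The lists were chosen with earlier results of these data known. The genotype difference was more positive under Zeocin for IAA5 (2.46, adjusted p = 0.015, edgeR), which was under 2 CPM in every group. The same held for IAA29, IAA2 and GH3.3 of the auxin list (1.32, 0.66 and 0.56), ADH1 of the hypoxia list (1.07), RNR1 (0.62), and GPX2 and DHAR1 of the scavenging list (0.50 and 0.48). It was more negative for PBS3 (-3.33) and CBP60G (-1.05) of the salicylic acid list, HSP70 (-1.29) and HSP90.1 (-1.08) of the heat shock list, OM66 (-1.18) and PRX71 (-0.65) of the ROS lists, GMI1 (-1.02), OPT3 of the iron list (-0.63) and XTH23 (-0.51). Of these, IAA5, DHAR1, RNR1 and XTH23 were also called between the genotypes under Zeocin.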

How the results depend on the processing

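The 2160 calls became 1290 (846 higher, 444 lower) without both pot1b libraries of replicate 3 and 925 (642 and 283) with the 6 Zeocin libraries alone. Leaving out each library gave 1233 to 2286 calls, 817 to 1304 higher and 416 to 982 lower. The 212 calls of at least 2-fold stayed between 164 and 245 under every alternative run. The 2540 mock calls ran from 1583 to 3700 without each library. The 144 interaction calls were 87 with limma-voom, 64 without both pot1b libraries of replicate 3 and 55 to 416 without each library. DESeq2 called 1520 genes, limma-voom 1879, RLE scaling 2156 and the fit without overlapping genes 1532. 0 shared calls changed direction under these alternatives.

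The labels give same-numbered libraries only a shared number, and the deviations of the 3 Zeocin pairs did not all correlate above 0.1 (0.12, -0.03 and 0.4). Over all groups 16 of 18 same-numbered pairs correlated positively, 11 of them above 0.1, the replicate 3 pairs at 0.27 to 0.4, and 9 of 12 libraries were closest to their own number, which is a hint of pairing from the data and not from the design. A replicate block gave 2840 calls, 2156 of them shared, 367 interaction calls, and called POT1B lower (adjusted p = 0.049). The sign of POT1A, which was not called, turned positive with limma-voom (0.006), without WT Zeocin replicate 2 (0.139), without the library labelled pot1b Zeocin replicate 3 (0.077) and without both pot1b libraries of that number (0.072); leaving out each library gave -0.097 to 0.139. Without 1 library, 24 named genes lost their calls. The cause of these shifts was not tested. Nuclear depth of 4719376 to 7596975 counts limits genes near 1 CPM.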
